A study of Rattus norvegicus with 12 samples.

Results

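The proteasome subunits measured here are 41 probe sets of 38 genes, out of 10411 genes with a probe set of 1 symbol and 15866 probe sets other than manufacturer's controls on the array. They were chosen as every probe set whose single annotated gene symbol begins with Psma, Psmb, Psmc, Psmd or Psme, without use of any measured value. Of the 41, 39 probe sets stand for 36 genes of the complex, its assembly chaperones or its activators. The other 2, Psmc3ip and Psme3ip1, carry a subunit's name because their products bind that subunit, and they are kept apart below. A further 6 probe sets list several symbols, among them 4 of Psme3 and single ones of Psma3 and Psmb6, and were left out, so that Psmb6 and Psme3 are not analysed here. RNA came from the CA1 region of the hippocampus of male Long-Evans rats, 3 to 4 months old, on 12 Affymetrix RAE230A arrays, 6 per group, each labelled a biological replicate. Every rat had been trained in a standard water maze 2 to 3 weeks before, and on the day swam 8 trials, 8 minutes apart, in a maze at another site. In the spatial learning group the visible platform kept its place and orienting cues were present, whereas in the control task group the visible platform moved between trials and informative cues were absent. Tissue was taken after a 90-second probe trial without the platform, 1 hour after training. The comparison asks which CA1 transcripts differ when the session offers a fixed place to learn. Below, arrays of the control task group are called controls.

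The proteasome degrades proteins tagged with ubiquitin. Its barrel, the 20S core, is built of rings of alpha subunits, which form the gate, around rings of beta subunits, of which some carry the proteolytic sites. The 19S regulatory particle caps the barrel: its base holds a ring of ATPases that unfold the substrate, and its lid and other non-ATPase subunits bind and remove ubiquitin. In cells exposed to interferon the catalytic subunits Psmb6, Psmb7 and Psmb5 are replaced by Psmb9, Psmb10 and Psmb8, giving the immunoproteasome, and the PA28 cap of Psme1 and Psme2 is induced with them. In neurons proteasome activity at synapses is known to be needed for lasting synaptic plasticity and for the formation of memory.

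Promoter sequences are shown for 4 beta subunits, since they place side by side the constitutive and the inducible subunit of one catalytic site (Psmb5 and Psmb8), the inducible subunit that could be measured (Psmb10) and the structural subunit that varied most closely with the rest of the core (Psmb3). Each is the 250 bases before the start that RefSeq's promoter table gives on the GRCr8 assembly, written 5′ to 3′ on the gene's own strand. Capitals mark, on either strand, TGACNNNGC (the core of the antioxidant response element, through which NFE2L1 drives subunit genes), CCAAT (the CCAAT box) and the core of the interferon-stimulated response element (GAAA, any 2 bases, GAAA). The positions are chr10:83193537-83193786 on the plus strand for Psmb3, and, on the minus strand, chr15:32047380-32047629 for Psmb5, chr20:4657032-4657281 for Psmb8 and chr19:50743293-50743542 for Psmb10.
Psmb3: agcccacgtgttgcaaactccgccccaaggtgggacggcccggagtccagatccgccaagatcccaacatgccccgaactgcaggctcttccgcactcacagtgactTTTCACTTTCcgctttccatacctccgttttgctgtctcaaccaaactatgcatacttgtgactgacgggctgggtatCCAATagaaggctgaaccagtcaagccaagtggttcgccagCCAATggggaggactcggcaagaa
Psmb5: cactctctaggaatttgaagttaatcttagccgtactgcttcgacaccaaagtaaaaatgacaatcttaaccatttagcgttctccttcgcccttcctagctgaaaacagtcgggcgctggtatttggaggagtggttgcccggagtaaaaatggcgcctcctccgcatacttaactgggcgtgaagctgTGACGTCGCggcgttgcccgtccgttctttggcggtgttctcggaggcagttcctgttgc
Psmb8: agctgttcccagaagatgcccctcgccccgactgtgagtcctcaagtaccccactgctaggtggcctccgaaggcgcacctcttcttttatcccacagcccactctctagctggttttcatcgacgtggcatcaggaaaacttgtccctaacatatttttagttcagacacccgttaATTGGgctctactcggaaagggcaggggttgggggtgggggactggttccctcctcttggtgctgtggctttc
Psmb10: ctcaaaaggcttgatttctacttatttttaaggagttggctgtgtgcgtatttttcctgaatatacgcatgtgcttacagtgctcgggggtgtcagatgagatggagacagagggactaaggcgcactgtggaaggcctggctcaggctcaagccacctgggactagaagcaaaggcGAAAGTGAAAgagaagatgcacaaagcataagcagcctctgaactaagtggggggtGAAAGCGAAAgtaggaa

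In the Psmb10 window the interferon-stimulated core matched at 2 places, beginning 73 and 17 bases before the start, and in the Psmb5 window TGACNNNGC matched once, 60 bases before it. Of the 38 genes, 36 had a promoter window, and 13 motifs were searched on both strands. The start used was the outer boundary of the gene record in 20 of the 36, Psmb3, Psmb5 and Psmb10 among them, and lay inside it in the other 16, by 18 bases in Psmb8 and by up to 13671 in Psma6. It was that boundary in 57.8% of all windows, so some windows hold transcribed bases. TGACNNNGC was found in 6 of the 36 (16.7%), namely Psma3, Psmb2, Psmb5, Psmd1, Psmd9 and Psme4, and in 10.1% of all 33469 windows of this length. The interferon-stimulated core was found in 5 members (13.9%), Psma4, Psmb3, Psmb10, Psmd7 and Psme2, and in 3.41% of all windows. The GC box GGGCGG stood in 24 members (66.7%) against 30.5% of windows, and CCAAT in 19 (52.8%) against 34%. Near the share of all windows were the gamma-activated site TTCNNNGAA (8.33% against 7.67%) and the TATA box TATAAA (11.1% against 12.9%). CCGGAAG stood in 10 members (27.8%) against 7.27%, and the E-box CACGTG in 5 (13.9%) against 5.59%. Each of the rest stood in 0 to 2 members (0% to 5.56%), against 0.263% to 2.68% of windows. The windows set beside the members were not matched to them in base composition or in expression. These are matches of letters and were not tied to any measurement of binding, and matches of different motifs can share bases.

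Transcripts of the proteasome differed little between the groups, and no member passed the test. Each difference is given as log2 of spatial learning over controls, where 0.2 is a 1.15-fold change. Of 38 member probe sets bright enough to test (mean of at least 4 over all arrays), 0 passed at a limma adjusted p of 0.05, as did 0 of all 9610 probe sets tested (0%). At an unadjusted p under 0.05 stood 2 of the 38 (5.26%), both lower, against 10.9% of all probe sets in either direction, 4.55% lower and 6.36% higher. The exact rank-sum test also called 0 members, and its smallest adjusted p among them was 0.42. In no member did the groups stand wholly apart, as they did in 0.635% of all probe sets.

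The data bound the size of any change in most members. The difference was under 0.2 in size in 37 of the 38 tested probe sets, the exception being a probe set of Psme4. The 95% interval of the difference lay wholly within 0.2 of 0 in 25 of them and within 0.3 in 34. The median SE was 0.06, and the median size of a difference was 0.04 in the members and 0.06 over all tested probe sets. Of the 38, 28 (73.7%) were higher after spatial learning, where 53.7% of all tested probe sets were. That count is a description of genes that vary together, not of independent ones. The 3′ minus 5′ signal of the hexokinase control, which tracks how far RNA is degraded or incompletely copied, was 1.48 ± 0.08 in controls and 1.65 ± 0.11 after spatial learning (mean ± SD, n = 6 each), with 5 of 6 spatial learning arrays above the highest control. With that signal as a covariate, 22 of the 38 (57.9%) were higher, beside 52.9% of all probe sets. The signal nearly separates the groups, so a fit with it cannot tell the group from RNA quality. Values with this covariate, here and below, are therefore not corrected differences.

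**Figure D1:**
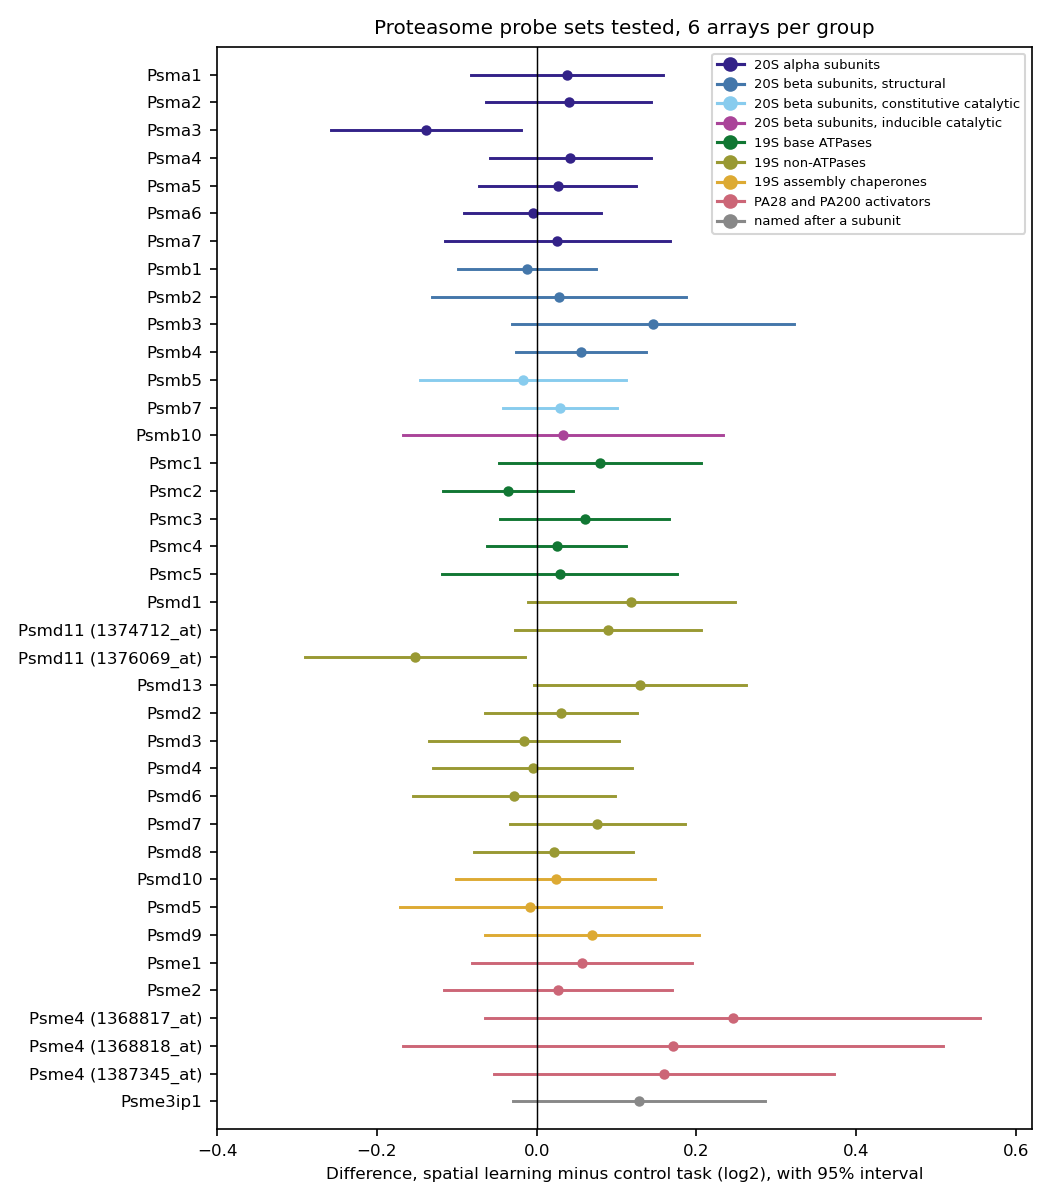
Difference between the groups (x axis, log2, spatial learning minus control task) with its 95% interval from limma for each of the 38 tested member probe sets (y axis), coloured by class, 6 arrays per group. All intervals but those of Psma3 and one Psmd11 probe set cross 0, and Psme4 has the widest.

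The 7 alpha subunits of the core, 5 of them higher and 2 lower, had a median difference of 0.03 beside a median of 0.01 over all tested named genes. Psma3, an alpha-ring subunit, had the smallest p of all members. Its values ran from 7.76 through a median of 7.80 to 7.90 in controls, and from 7.49 through 7.69 to 7.78 after spatial learning. In 4 of the 6 spatial learning arrays the value lay below the lowest control, and the other two lay inside the control range. The difference was -0.14 (SE 0.06, 95% interval -0.26 to -0.02), a level 0.909 times that of the control task, with a limma adjusted p of 0.429. Without control task replicate 5, or with the hexokinase signal as a covariate, no member stood at an unadjusted p under 0.05. With that covariate the difference of Psma3 was -0.16, no smaller in size, with a limma adjusted p of 0.775. The remaining alpha subunits lay within 0.05 of 0: Psma4 at 0.04 (SE 0.05), Psma2 at 0.04 (SE 0.05), Psma1 at 0.04 (SE 0.06), Psma5 and Psma7 at 0.03 and Psma6 at -0.0050. Psma4, whose values spanned 7.88 to 8.02 in controls and 7.84 to 8.07 after spatial learning, had arrays of the second group both above and below the control range.

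The structural beta subunits other than Psmb3 were close to level. Psmb3 had the widest gap in the core: its values ran from 8.73 through a median of 8.85 to 8.998 in controls, and from 8.76 through 8.96 to 9.26 after spatial learning. Here 3 spatial learning arrays, replicates 1, 5 and 6, lay above all controls, while the other three lay within the control range. The difference was 0.15 (SE 0.08, limma adjusted p = 0.538), and the SD was 0.10 in controls and 0.19 after spatial learning. Psmb4 differed by 0.06 (SE 0.04), Psmb2 by 0.03 (SE 0.07) and Psmb1 by -0.01 (SE 0.04). Psmb2 ran from 9.35 to 9.78 after spatial learning and from 9.41 to 9.60 after the control task, so that its spread between arrays was far wider than its difference.

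**Figure D2:**
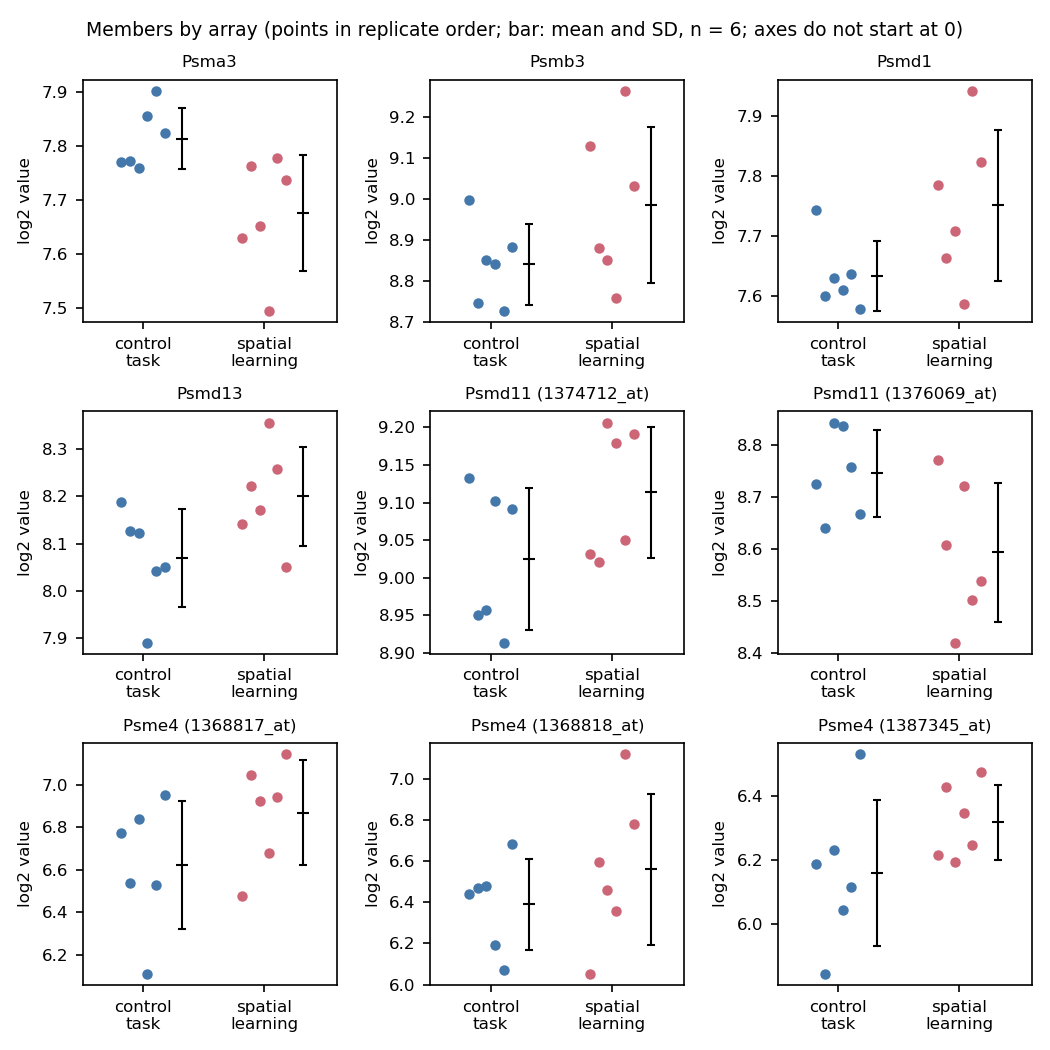
Log2 value of 9 probe sets in each array (y axis, a different range in each panel), 6 control task arrays in blue and 6 spatial learning arrays in red, with the mean and SD in black. The groups overlap in every panel, and the panels of the Psmd11 probe sets shift in opposite directions.

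The catalytic subunits were measured with unequal precision. Psmb7, the trypsin-like subunit, had the smallest SE of the tested members, at 10.56 ± 0.04 and 10.59 ± 0.05 in controls and after spatial learning (log2, mean ± SD, n = 6 each), a difference of 0.03 with a 95% interval of -0.04 to 0.10. Psmb5, the chymotrypsin-like subunit, ran from 10.26 through a median of 10.35 to 10.39 in controls and from 10.09 through 10.31 to 10.49 after spatial learning. The difference was -0.02 (SE 0.06), and spatial learning arrays lay on either side of the control range. Without spatial learning replicate 3, its lowest array, the difference of Psmb5 was 0.03.

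Of the immunoproteasome members, 3 of 5 were bright enough to test, and 0 of these passed with limma, adjusted or unadjusted. Psmb8 and Psmb9, the inducible counterparts of Psmb5 and Psmb6, lay below the level filter, with Psmb8 between 1.91 and 1.94 and Psmb9 between 3.25 and 3.35 over all 12 arrays. Values this low and this even are near what the processing assigns to background, so no level can be read from them. Psmb9 was at 3.27 ± 0.01 and 3.30 ± 0.02, and 4 of 6 spatial learning arrays exceeded the highest control by amounts under 0.1. Psmb10, the counterpart of Psmb7, passed the filter, and ran from 4.93 through a median of 5.04 to 5.43 in controls and from 4.87 through 5.11 to 5.36 after spatial learning. The groups overlapped throughout, and the difference was 0.03 (SE 0.09, 95% interval -0.17 to 0.23, limma adjusted p = 0.921). The value depended on single arrays: it was 0.10 without control task replicate 2, the highest control, 0.08 without spatial learning replicate 1, -0.02 without spatial learning replicate 5 and -0.07 with the hexokinase signal as a covariate.

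The PA28 subunits that cap the immunoproteasome also overlapped between the groups. Psme1 was at 8.81 ± 0.11 and 8.87 ± 0.11 in controls and after spatial learning (n = 6 each), a difference of 0.06 (SE 0.06, limma adjusted p = 0.781). Psme2 was at 7.63 ± 0.12 and 7.65 ± 0.11, a difference of 0.03 (SE 0.07, limma adjusted p = 0.907). With the hexokinase signal as a covariate they stood at -0.06 and -0.05 (limma adjusted p = 0.912 and 0.937). Of 18 antigen presentation and interferon genes with a probe set, 14 lay below the filter and 0 of the other four passed with limma, 2 of them higher at an unadjusted p under 0.05: Erap1, a peptidase that trims peptides for presentation, at 0.21 (SE 0.07, limma adjusted p = 0.388), and RT1-Db1, a class II histocompatibility chain, at 0.23 (SE 0.10). Over all tested probe sets 6.36% were higher at that level. RT1-Db1 was dim, with a mean of 4.54 over all arrays, and ran from 4.06 to 4.55 in controls and from 4.48 to 5.06 after spatial learning. Among the genes below the filter were the other class II chains RT1-Da, RT1-Ba and RT1-Bb. B2m, the light chain of class I molecules, stood at -0.08 (SE 0.06). Microglia, which carry much of the immunoproteasome in brain, had 10 of 10 tested markers lower, with a median of -0.06 and none past the adjusted threshold, P2ry12 furthest by p at -0.43 (SE 0.13, limma adjusted p = 0.388) and Itgam next at -0.15. The mean of the 13 microglia markers with a probe set ranged from 5.83 to 6.21 over control task arrays and from 5.76 to 6.05 over spatial learning arrays. Fewer cells of a type and less RNA per cell cannot be told apart in such tissue, and the part of microglia in these values was not tested.

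**Figure D3:**
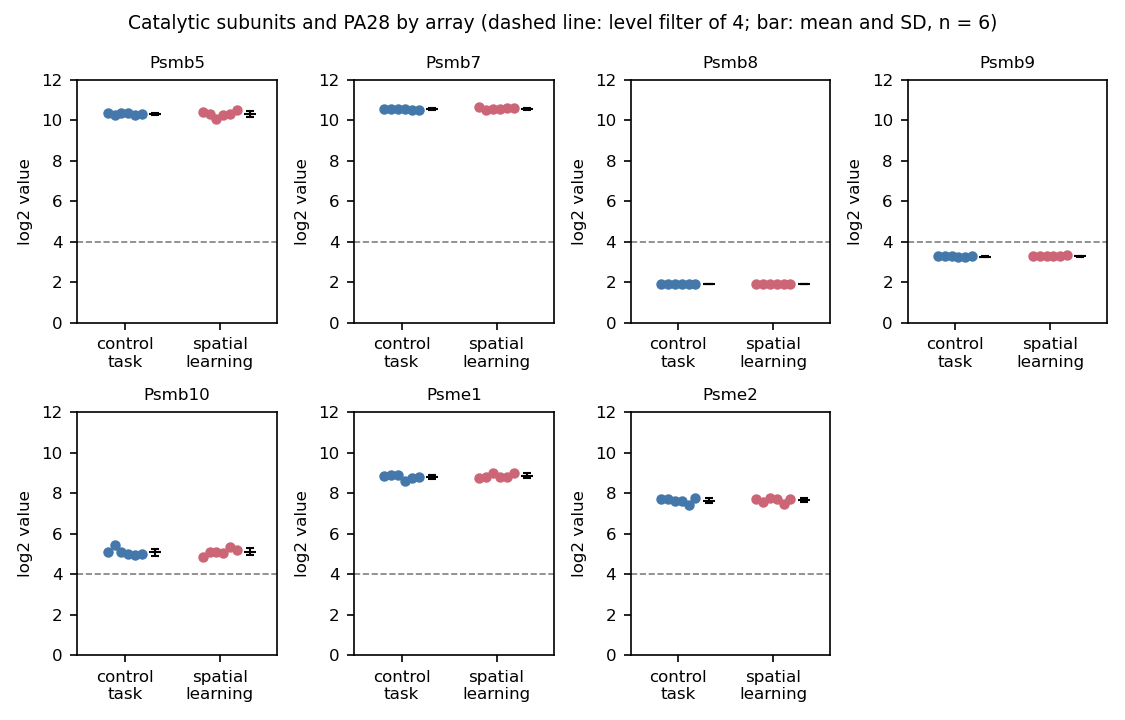
Log2 values (y axis, 0 to 12) of the constitutive catalytic subunits Psmb5 and Psmb7 and of the 5 immunoproteasome members in each array, control task in blue and spatial learning in red, with mean and SD (n = 6) and the level filter of 4 as a dashed line. Psmb8 and Psmb9 lie under the line on every array; heights of different probe sets are not on a common scale.

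The 5 measured ATPases of the 19S base had a median difference of 0.03, 4 of them higher and 1 lower, and 0 passed the limma test, adjusted or unadjusted. Psmc1 ran from 10.04 through a median of 10.10 to 10.31 in controls and from 10.07 through 10.24 to 10.34 after spatial learning, and differed by 0.08 (SE 0.06, limma adjusted p = 0.652). Psmc3 differed by 0.06 (SE 0.05), Psmc5 by 0.03 (SE 0.07), Psmc4 by 0.03 (SE 0.04) and Psmc2, the lower one, by -0.04 (SE 0.04). In each of the 5 the groups overlapped along most of their range.

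Among the members of the regulatory particle, the non-ATPase subunits held the widest gaps. The median of the 9 was 0.03, with 6 above 0 and 3 below, or 5 and 4 with the opposed probe sets of Psmd11 averaged. Psmd13, a lid subunit, ran from 7.89 through a median of 8.09 to 8.19 in controls and from 8.05 through 8.20 to 8.36 after spatial learning. In 3 spatial learning arrays the value exceeded every control, and the difference was 0.13 (SE 0.06, 95% interval -0.0030 to 0.26, limma adjusted p = 0.465). Psmd1, the large scaffold of the base, ran from 7.58 through 7.62 to 7.74 in controls and from 7.59 through 7.75 to 7.94 after spatial learning, a difference of 0.12 (SE 0.06, limma adjusted p = 0.492). Again 3 spatial learning arrays exceeded every control. Psmd7, the lid partner of the deubiquitinase, stood at 0.08 (SE 0.05) and Psmd2, the other base scaffold, at 0.03 (SE 0.04). The ubiquitin receptor Psmd4 stood at -0.0049 (SE 0.06), Psmd6 at -0.03, Psmd3 at -0.02 and Psmd8 at 0.02.

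Psmd11, a lid subunit whose amount is known to limit assembly of the capped proteasome in some cells, gave opposite differences on its 2 probe sets. On the brighter, values ran from 8.91 through a median of 9.02 to 9.13 in controls and from 9.02 through 9.11 to 9.21 after spatial learning, a difference of 0.09 (SE 0.05, limma adjusted p = 0.569). On the dimmer they ran from 8.64 through 8.74 to 8.84 and from 8.42 through 8.57 to 8.77, a difference of -0.15 (SE 0.06, 95% interval -0.29 to -0.01, limma adjusted p = 0.436). On the first 3 spatial learning arrays lay above all controls, and on the second 4 lay below all controls. The gap between the probe sets within an array was 0.28 ± 0.13 in controls and 0.52 ± 0.19 after spatial learning (n = 6 each), and was wider than in any control in 4 of the 6 spatial learning arrays. After removal of the group means the probe sets had a Pearson correlation of -0.22 over the 12 arrays, a description only. The files do not say which part of the transcript each probe set reads, so no direction can be given for Psmd11 as a gene.

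The chaperones that assemble the 19S base gave small differences, none past the test. Psmd10 (gankyrin) stood at 0.02 (SE 0.06), Psmd5 at -0.0080 (SE 0.08) and Psmd9 at 0.07 (SE 0.06). Psmd9, at 4.35 ± 0.08 and 4.42 ± 0.13, was the dimmest member tested, and Psmb9, at a mean of 3.29 over all arrays, the brightest left out.

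With all arrays, the largest difference of any tested member was that of Psme4, which encodes PA200, a cap that opens the core without ATP. Its 3 probe sets all pointed higher. On the brightest, values ran from 6.11 through a median of 6.66 to 6.95 in controls and from 6.48 through 6.93 to 7.14 after spatial learning, a difference of 0.25 (SE 0.14, limma adjusted p = 0.553), or 1.19-fold. On the next the difference was 0.17 (SE 0.16, limma adjusted p = 0.725) and on the dimmest 0.16 (SE 0.10, limma adjusted p = 0.578). The groups overlapped on each, with at most 2 spatial learning arrays above the highest control. These probe sets read one gene in the same arrays, so their common direction is no replication. Without control task replicate 4 the brightest stood at 0.14, no longer above Psmb3 at 0.15. With the hexokinase signal as a covariate the 3 differences were -0.12, -0.12 and -0.01 (limma adjusted p = 0.896, 0.922 and 0.989). In the Psme4 values the part of RNA quality cannot be told apart from that of the group.

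Of the genes named after a subunit, Psme3ip1 ran from 6.64 to 7.03 in controls and from 6.89 to 7.20 after spatial learning, a difference of 0.13 (SE 0.07, limma adjusted p = 0.543). Psmc3ip, which acts in meiotic recombination, lay below the filter, between 2.25 and 2.39 over the 12 arrays.

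Set side by side, the core and the regulatory particle gave nearly the same picture. With each gene entered through its brightest probe set, 10 of 14 core genes and 10 of 14 regulatory particle genes were higher, with medians of 0.03 for both. Psmd11 counts among the higher ones through its brighter probe set alone; with its probe sets averaged it stood at -0.03, 9 of 14 regulatory particle genes were higher and the median stayed at 0.03. These counts stand beside 55.6% higher and a median of 0.01 over the 6867 tested named genes. The mean of the core genes was 9.39 ± 0.04 in controls and 9.41 ± 0.06 after spatial learning, and that of the regulatory particle 9.25 ± 0.05 and 9.30 ± 0.03 (log2, mean ± SD, n = 6 each). Core means ran from 9.31 to 9.42 over control arrays and from 9.33 to 9.49 over spatial learning arrays, 3 of which exceeded every control. Regulatory particle means ran from 9.18 to 9.31 and from 9.26 to 9.34, and 1 array exceeded every control. The mean difference was 0.02 in the core and 0.04 in the regulatory particle. Core minus regulatory particle thus shifted by -0.02 (-0.01 with the probe sets of a gene averaged). The within-group SD of the per-array gap between the classes was 0.04. Adrm1 (-0.27, SE 0.09) and Sem1 (0.02, SE 0.04), regulatory particle subunits under other symbols, are not among the 14. How the shift stands with both included was not computed. Without control task replicate 5, the lowest array in both classes, the core median was 0.0047 and that of the regulatory particle 0.03. No p is given for these class means, since the members, though picked by symbol alone, were chosen with earlier results of these data known.

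**Figure D4:**
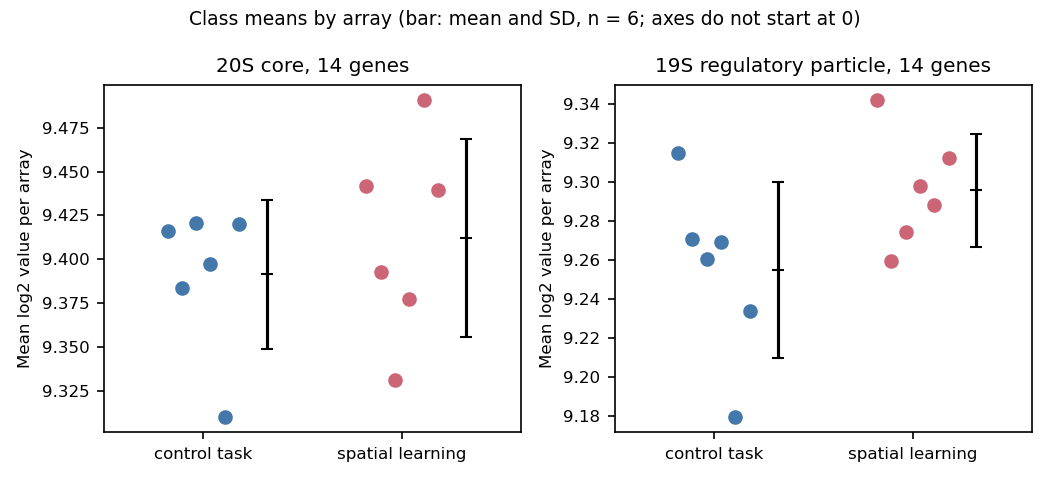
Mean log2 value per array (y axis, not starting at 0) over the 14 tested genes of the 20S core and the 14 of the 19S regulatory particle, control task in blue and spatial learning in red, with mean and SD (n = 6). Both groups overlap in each class, and control task replicate 5 is the lowest array in both panels.

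Many subunits deviated together between arrays of the same group. After subtraction of each group's mean, the median Pearson correlation over the 12 arrays was 0.24 among the 91 pairs of core genes, 0.13 among the 91 pairs of regulatory particle genes and 0.18 between the classes, where all pairs of tested probe sets had a median of 0.00051 and pairs of probe sets with a mean of at least 9 one of 0.00055. The points share the 12 arrays, and the values are a description with no test. Within the core, the 6 constitutive beta genes had a median of 0.54 over 15 pairs and the 7 alpha genes 0.27. Within the regulatory particle, the ATPases had a median of 0.38 over 10 pairs and the non-ATPases -0.02 over 36.

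The genes nearest their class, by correlation with the mean of its other 13 genes, were Psmb3 at 0.75, Psmb7 at 0.70 and Psma7 at 0.66 in the core, and Psmc3 at 0.73, Psmc2 at 0.68 and Psmc1 at 0.60 in the regulatory particle. Psmb10 at 0.03, Psma3 at 0.02 and Psma6 at -0.06 stood apart from the core, and Psmd13 at -0.12, Psmd2 at -0.10 and Psmd3 at -0.09 from the regulatory particle. Psma3 and Psmd13, with the widest differences among genes with 1 probe set other than Psmb3, were thus among those that did not follow their class from array to array. Single arrays carried part of the pattern. In control task replicate 5, 24 of 28 genes lay below their group's mean, and in spatial learning replicate 3, 25 of 28. Without control task replicate 5 the median correlation was 0.19 in the core, 0.08 in the regulatory particle and 0.08 between the classes. Without spatial learning replicate 3 the core's median was 0.15.

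**Figure D5:**
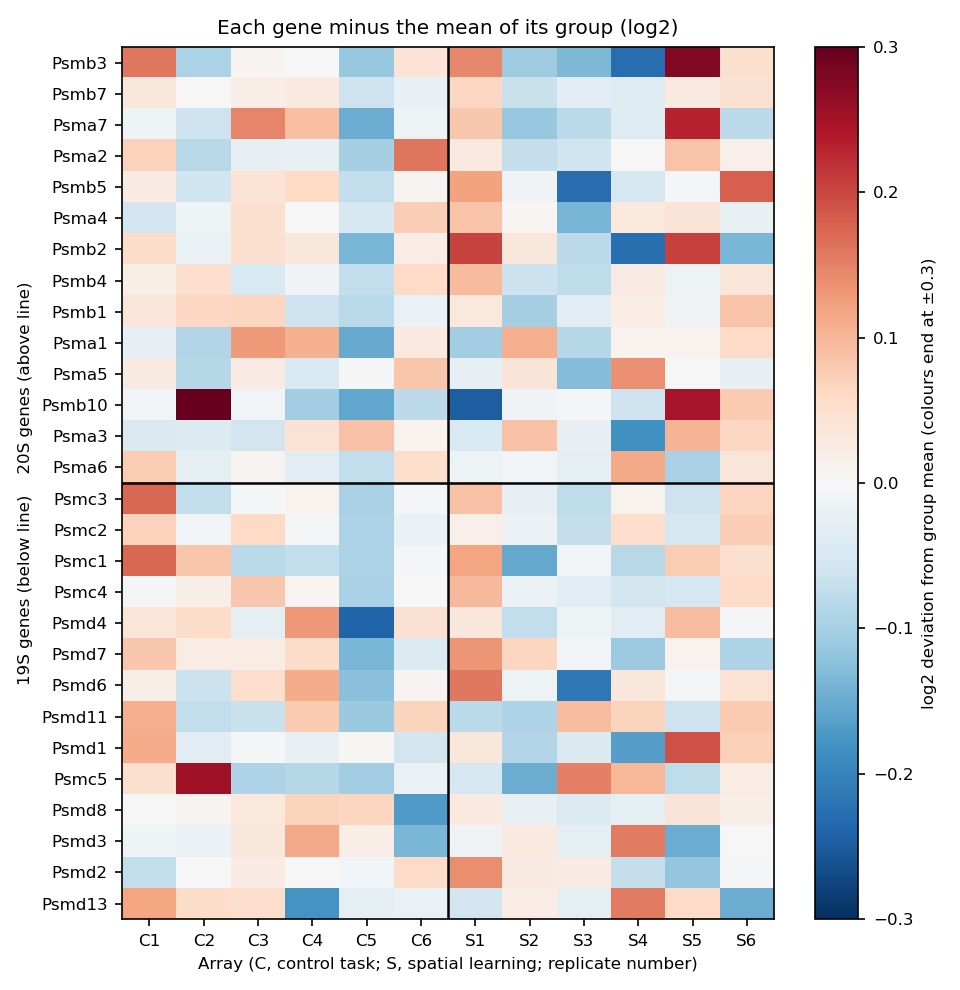
Deviation of each core gene (above the line) and regulatory particle gene (below) from its group's mean (colour, log2) in each array (x axis), genes ordered by correlation with the mean of the rest of their class. Columns C5 (control task replicate 5) and S3 (spatial learning replicate 3) are low in 24 and 25 of the 28 genes.

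Of 15 measured assembly factors and partners 7 were higher and 8 lower (median -0.04), with 0 past the limma adjusted threshold and 1 at an unadjusted p under 0.05. That was Adrm1, the ubiquitin receptor on the regulatory particle, at 8.46 ± 0.17 and 8.19 ± 0.18 (n = 6 each), a difference of -0.27 (SE 0.09, limma adjusted p = 0.42), with 3 spatial learning arrays below all controls. Psmf1, an inhibitor of the core, came next at 0.13 (SE 0.07). Over all tested probe sets 10.9% stood at a limma unadjusted p under 0.05. Of 14 ubiquitin and delivery genes 10 were higher and 4 lower (median 0.02), 0 of them at an unadjusted p under 0.05, led by Uba1, the main ubiquitin-activating enzyme, at 0.08 (SE 0.05) and Vcp, the segregase that extracts tagged proteins, at 0.06 (SE 0.04).

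The arrays were alike: pairwise correlations over the tested probe sets ran from 0.989 to 0.995. Precision is limited by the number of arrays. Over all tested named genes 55.6% were higher after spatial learning. The CA1, dentate and microglia marker lists each leaned to one side between the groups, while the other lists were mixed. The part of these cell types in the member values was not tested. CA1 markers were present, and 7 of 7 were higher (median 0.14), led by Itpka at 0.27 and Fibcd1 at 0.36, while 4 of 4 tested dentate markers were lower (median -0.23), with Trpc6 at -0.19 and Stxbp6 at -0.32. Neuronal markers were higher in 2 of 6 (Slc17a7 at -0.18, Camk2a at 0.59), astrocyte markers in 2 of 8 (Slc1a2 at -0.19, Aqp4 at -0.09), oligodendrocyte markers in 2 of 7 (Cnp at 0.19, Cldn11 at -0.11), meningeal markers in 2 of 7 (Gjb2 at -0.31, Aldh1a2 at -0.04) and choroid plexus markers in 1 of 3 (Ttr at -3.33, Kcne2 at 0.18), with 0 past the limma adjusted threshold. The mean of the choroid plexus list ranged from 3.81 to 5.36 over control task arrays and from 3.71 to 3.85 over spatial learning arrays, and that of the meningeal list from 5.17 to 6.58 and from 5.07 to 6.39. Without control task replicates 3 and 6 and spatial learning replicate 6, which stand apart in those transcripts, 0 members and 5 of all tested probe sets passed with limma, and the medians were 0.05 for the core and 0.04 for the regulatory particle. At a limma unadjusted p under 0.05, 3 of the 38 members were then higher (Psmd13, Psme3ip1 and Psme4) and 1 lower (Psma3). The share of all tested probe sets at that level is not given for this fit, so the count is not read as a result. With all arrays that share was 6.36% higher and 4.55% lower.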

How the data were processed

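CA1 RNA was hybridised to 12 arrays, 6 per group, grouped by the sample titles, which call them biological replicates. The deposited values are log2 probe set summaries made by the authors with GCRMA, per the submitters' processing notes, with no version given in the sources used here; values span 0.134 to 14.8, from which log2 was inferred. GCRMA equalises the arrays' distributions and flattens dim probe sets, so differences near background are compressed.

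Names came from the platform annotation, and all 41 member probe sets matched a GRCr8 gene record with 0 symbols changed. All 9610 probe sets with a mean of at least 4 entered a linear model with group as its only term, in limma 3.58.1 under R 4.3.3, with eBayes and an intensity trend (2-sided), with Benjamini-Hochberg adjustment over all of them. In simulated arrays with the real means and spreads of these 9610 probe sets, 20 of 100 changes of 0.2 and 74 of 100 changes of 0.5 were recovered, with 1 false call.

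Members, though picked by symbol alone, were chosen with earlier results of these data known, as were the gene lists and marker lists. Named were the catalytic and activator genes, the first 3 of each class by p, all genes with several probe sets, those nearest the filter and the first 2 of each other list. Promoters came from RefSeq, and the 13 motifs were chosen after values were seen. Alternatives changed the filter, normalization, weights, covariates and arrays included. The labels do not tell separate litters or days, so p-values measure the spread between these samples.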

Additional observations from a re-analysis of the deposited data

Results flagged for a closer look

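In 88 groups of 6 arrays (41 probe sets and 3 class measures, each in 2 groups) the highest or lowest array was set against the rest by its gap to the nearest array over the group's range, with a critical ratio of 0.625. It was exceeded in 10, and chance gives about 1 in 20 groups. In the control task group, replicate 2 was high in Psmb10 at 5.43, where the next array was at 5.07. Replicate 1 was high in Psmd1 at 7.74 and replicate 3 in Psmd9 at 4.50. Replicate 6 was low in Psmd8 at 8.01, and replicate 5 was low in the mean of the 20S core at 9.31, where the next was at 9.38. The other cases lay among probe sets under the level filter, where values are near background: Psmb8 in spatial learning replicate 5 at 1.91, Psmb9 in control task replicate 4 at 3.25 and in spatial learning replicate 6 at 3.35, and Psmc3ip in control task replicate 6 at 2.34 and in spatial learning replicate 2 at 2.25, where the next was at 2.37.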

How the results depend on the processing

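Over 23 alternative fits, 0 members and 0 immunoproteasome members passed at a limma or rank-sum adjusted p of 0.05, and the smallest adjusted p of a member ranged from 0.297 (without control task replicate 6) to 0.775 (with the hexokinase signal as a covariate). Of all tested probe sets, 3 passed with array weights, 3 without control task replicate 6 and 5 without the 3 arrays that stand apart, against 0 with all arrays. Of 25 named probe sets, 15 kept their sign in every alternative run for them. Among them were Psma3 (-0.16 to -0.10), Psmd13 (0.09 to 0.17), Psmb3 (0.09 to 0.19) and both of Psmd11. The others changed sign in 1 to 6. Changes of the filter, the variance model, the rank-sum test or the block leave a difference as it is. Under them no sign could change, and most other alternatives left out only single arrays. The difference between core and regulatory particle means stayed negative, from -0.04 to -0.0040, and ranged from -0.04 to -0.0082 when single arrays were left out. Every one of these fits left out Adrm1 and Sem1. Replicate numbers showed no pairing of the arrays: correlations of deviations between same-numbered arrays lay from -0.17 to 0.08, and 1 of the 6 numbers matched best with its own. A weak pairing could escape such a check. With the replicate number as a block, 0 members passed, and at a limma unadjusted p under 0.05 only Psma3 remained lower. Each number has 1 array per group, so a block cannot change a difference. Without control task replicate 5, and with the hexokinase covariate, 0 were lower at that level. When single arrays were left out, 0 to 3 members were higher and 0 to 2 lower at that level. The shares of all probe sets in those fits are not given, so these counts stand without a background. In simulated arrays of this size, with the spreads of all tested probe sets, most changes of 0.2 were missed. Members had a median within-group SD of 0.10 beside 0.12 over all tested probe sets, and recovery in members alone was not simulated. The absence of calls does not show that small changes are absent.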
